A study of Macaca mulatta with 5 samples.

Results

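Corticotropin-releasing hormone (CRH) is a peptide of the stress response. In the hypothalamus it drives the pituitary, and in the forebrain it is also made by local inhibitory neurons and acts on nearby cells. Its binding protein, CRHBP, is secreted, binds the peptide and keeps it from its receptors. CRHR1 and CRHR2 are receptors coupled mainly to the stimulatory G protein and cyclic AMP; CRH itself binds CRHR1 with the higher affinity, while the related urocortins bind CRHR2 well.

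The 4 genes of this system, chosen by their symbols, were each found once among the 21761 gene identifiers of the tables: CRH (ENSMMUG00000021587), CRHBP (ENSMMUG00000021354), CRHR1 (ENSMMUG00000004108) and CRHR2 (ENSMMUG00000011758). They were followed in single nuclei of frozen claustrum, the thin grey-matter sheet beside the striatum, of 2 healthy male rhesus macaques that had no treatment. The animal aged 18 months gave 3 libraries and the animal aged 17 months gave 2 libraries, each made with a droplet kit that reads the 3′ ends of transcripts. Age and animal cannot be told apart, and the libraries repeat the measurement on an animal, so every p-value reflects how libraries vary rather than how animals vary.

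The 5 libraries totalled between 47512670 and 70896967 unique molecular identifiers (UMIs), and 37091 of 40005 nuclei were kept, between 6053 and 8812 in a library. Between 11 and 39 barcode sequences were shared by each pair of libraries. Marker genes named 8642 excitatory, 2536 inhibitory and 1702 striatal projection neurons, 13386 oligodendrocytes, 2073 oligodendrocyte precursors, 2844 microglia, 1221 astrocytes and 402 endothelial nuclei, while 4285 nuclei stayed in unnamed clusters. The tissue label was checked against its markers: all 5 claustrum markers (NR4A2, GNB4, SYNPR, NTNG2 and SMYD1) were on in each of 5 clusters with 5030 excitatory nuclei, called claustrum-like here. Of these clusters, 4 also carried all 3 markers of layer 2/3 neurons (CUX2, CBLN2 and RASGRF2), and in the largest, of 1740 nuclei, the markers of another excitatory subclass scored higher than the claustrum markers. At a finer resolution of 1, clusters of 846, 496 and 461 excitatory nuclei were named layer 2/3-like. Neurons with the markers of striatal projection neurons, which the neighbouring striatum holds, made up 4.59% of kept nuclei. None of the 4 genes was used to form or name a cluster. Levels are CPM, the UMIs of a gene per 1000000 UMIs summed over a class in a library, and since reads come from the 3′ end with no gene lengths at hand, levels are compared between classes and not between genes.

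In all kept nuclei there were 162 UMIs of CRH, 1625 of CRHBP, 6314 of CRHR1 and 559 of CRHR2. Inhibitory neurons held 69.1% of the CRH UMIs and 70.8% of the CRHBP UMIs, whereas excitatory neurons held 86.4% of the CRHR1 UMIs and 87.5% of the CRHR2 UMIs. The ligand and its binding protein thus lay mostly in one neuron class and both receptors mostly in the other.

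**Figure D1:**
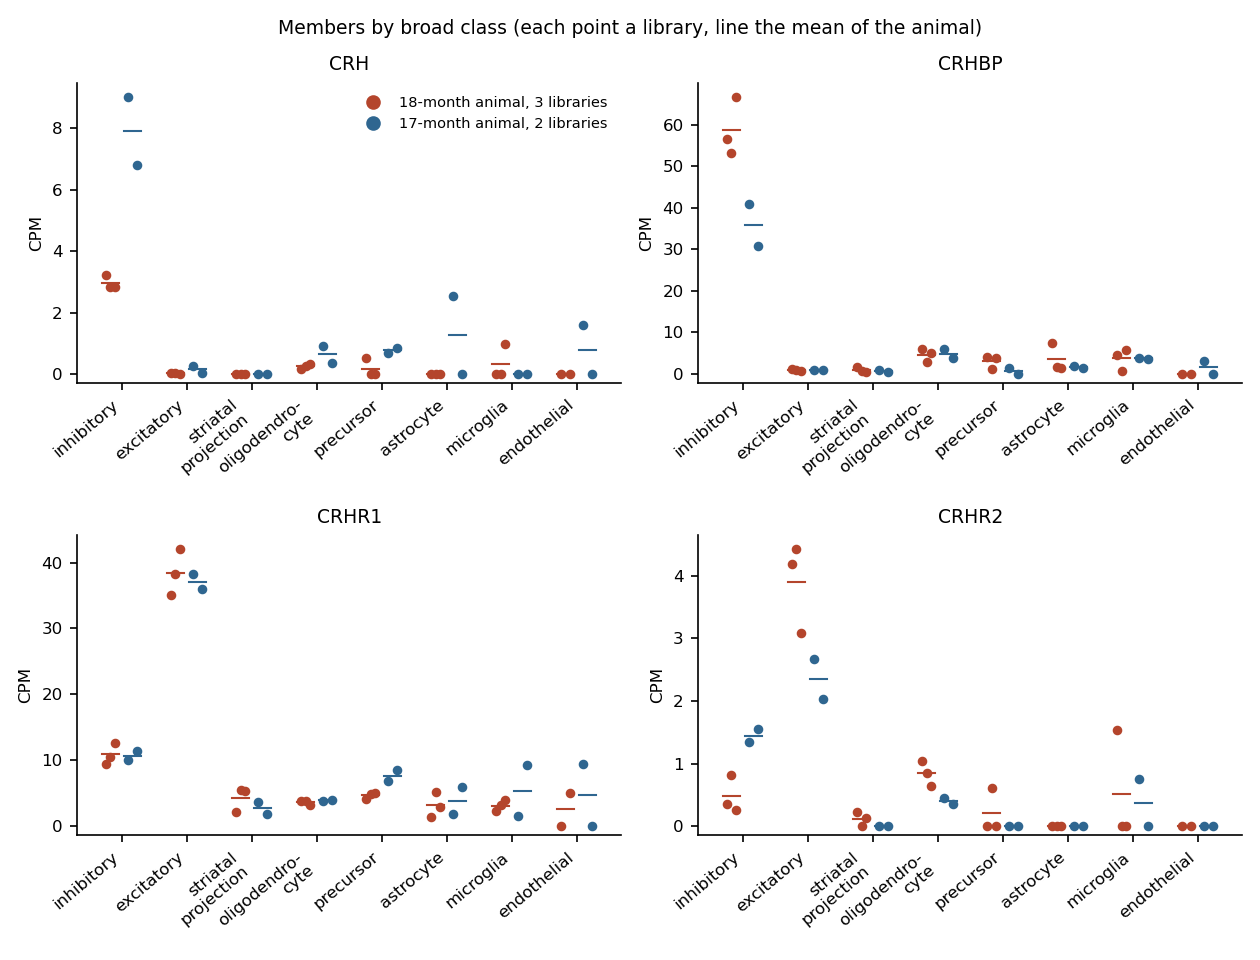
Level of the 4 genes (CPM, vertical axes, one scale per gene) in 8 broad classes. Each point is a library, the 18-month animal left of the 17-month animal in each class, and lines are the means of an animal. CRH and CRHBP stand highest in inhibitory neurons and CRHR1 and CRHR2 in excitatory neurons, in all 5 libraries. Endothelial sums of the second 18-month library are missing for lack of nuclei.

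In inhibitory neurons CRH was at 3.21, 2.84 and 2.84 CPM in the 18-month animal and at 9.02 and 6.80 CPM in the 17-month animal. In excitatory neurons it was at 0.0291, 0.0316 and 0 CPM in the 18-month animal and at 0.263 and 0.0432 CPM in the 17-month animal, 10 UMIs in all. The 2 classes did not overlap in any library. CRH was higher in inhibitory than in excitatory neurons by 5.87 on the log2 scale (SE 0.367, adjusted p = 8.34e-10 by the edgeR quasi-likelihood test, higher in 5 of 5 libraries). Genes were called where the adjusted p was under 0.05 and the log2 fold change was 1 or more in size. By this rule 15.2% of 11107 genes were called between these classes, and so were all 4 genes of the CRH system.

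CRHBP was at 56.6, 53.1 and 66.7 CPM in inhibitory neurons of the 18-month animal and at 40.9 and 30.9 CPM in those of the 17-month animal. In excitatory neurons it was between 0.815 and 1.19 CPM over the 5 libraries. Its lowest inhibitory library thus lay far above its highest excitatory library, and the difference was 5.56 on the log2 scale (SE 0.127, adjusted p = 6.45e-15).

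The receptors went the other way in these named classes. CRHR1 was at 9.47, 10.5 and 12.7 CPM in inhibitory neurons of the 18-month animal and 9.98 and 11.4 CPM in those of the 17-month animal. In excitatory neurons it was at 35.1, 38.2 and 42.0 CPM in the 18-month animal and 38.3 and 36.0 CPM in the 17-month animal. These ranges lie well apart, and CRHR1 was lower in inhibitory neurons, with a log2 fold change of -1.93 (SE 0.0795, adjusted p = 4.52e-12, lower in 5 of 5 libraries).

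CRHR2 rested on fewer counts, 19 UMIs in inhibitory and 489 UMIs in excitatory neurons. It was at 0.357, 0.811 and 0.258 CPM in inhibitory neurons of the 18-month animal and at 1.34 and 1.55 CPM in those of the 17-month animal. In excitatory neurons it was at 4.19, 4.42 and 3.08 CPM in the 18-month animal and at 2.67 and 2.03 CPM in the 17-month animal. The gap was narrowest in the 17-month animal, yet the classes did not overlap, and the log2 fold change was -2.11 (SE 0.364, adjusted p = 0.000167).

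In the other named classes the genes were scarce, though CRHR1 was not scarce in every unnamed broad cluster. It was at 34.5 CPM on 100 UMIs in cluster 19 (314 nuclei). In cluster 22 it was at 16.3 CPM on 36 UMIs, with 146 of the 153 nuclei from the second 18-month library. In each of these, 4 of 6 measured markers of striatal projection neurons were on, but neither was named. Unnamed broad clusters 9 and 24 were at 2.85 and 2.64 CPM of CRHR1. The largest unnamed one, cluster 6 (1842 nuclei, median depth 963.5 UMIs), was at 27.7 CPM of CRHR1 on 57 UMIs. It was at 13.6 CPM of CRHBP on 28 UMIs. Small clusters 31 and 32, of 22 and 20 nuclei, were at 26.9 and 23.5 CPM of CRHR1 on 13 and 7 UMIs. CRH had 0 UMIs in 1702 striatal projection neurons, with an exact 95% upper limit of 0.217% of nuclei with a UMI. A floor of 3 counts over the group would be 0.176% of nuclei and 0.123 CPM. Against that floor CRH would be 39.7-fold higher in inhibitory neurons, and the lower 95% counting limit of the ratio was 31.8. CRHBP and CRHR1 were also lower in striatal projection neurons than in the mean of excitatory and inhibitory neurons. The log2 fold changes by edgeR were -2.90 (SE 0.289, adjusted p = 1.32e-11) and -2.07 (SE 0.171, adjusted p = 6.79e-14), in 5 of 5 libraries each. There 20.7% of the 9926 genes tested were called. For CRHBP the inhibitory neurons set that mean: it averaged 0.876 CPM in striatal projection, 0.968 CPM in excitatory and 49.6 CPM in inhibitory neurons. Striatal projection neurons were above excitatory neurons in CRHBP in the first library of each animal and below them in the others. CRHR1 was at 2.09, 5.47 and 5.28 CPM in striatal projection neurons of the 18-month animal and 3.71 and 1.8 CPM in those of the 17-month animal. These values overlap those of glia.

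In glia, CRHR1 averaged 3.75 ± 0.315 CPM in oligodendrocytes, 5.89 ± 1.77 CPM in oligodendrocyte precursors, 3.50 ± 1.98 CPM in astrocytes and 4.04 ± 3.08 CPM in microglia (SD, n = 5). Neurons, taken as the mean of 3 classes, were compared with the mean of these glial classes and endothelial nuclei. Endothelial nuclei held 7 UMIs of CRHR1 in 4 libraries. Neurons were higher in CRHR1 by 1.72 on the log2 scale (SE 0.155, adjusted p = 3.99e-13 by edgeR), in a comparison that called 25.9% of 9926 genes. For CRHBP no such fold is given, since endothelial nuclei held 2 UMIs. Its levels were 4.74 ± 1.31 CPM in oligodendrocytes, 3.75 ± 1.86 CPM in microglia and 2.80 ± 2.56 CPM in astrocytes, above the 0.968 ± 0.140 CPM of excitatory neurons (SD, n = 5). That last difference was not tested, and the median depth was 2372 UMIs in an oligodendrocyte against 15580 UMIs in an excitatory nucleus. With each nucleus thinned to 1000 UMIs, CRHBP was seen in 0.476% of oligodendrocytes (exact 95% interval 0.366 to 0.608%). Its share was 0.357% in microglia (0.171 to 0.656%) and 0.104% in excitatory nuclei (0.0476 to 0.198%). Astrocytes did not keep the order of the levels, at 0% after thinning (upper limit 0.304%). These shares were not compared by a test.

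CRHR2 had 0 UMIs in 1221 astrocytes, with an exact 95% upper limit of 0.302% of nuclei with a UMI. Against the same floor of 3 counts, here 0.246% of nuclei, it would be 5.36-fold higher in excitatory neurons. The lower 95% counting limit of the ratio was 4.35. In 13386 oligodendrocytes CRHR2 had 22 UMIs. None of the 4 genes had enough counts to be tested between the glial classes, so differences among glia were not detectable at this depth.

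Shares of nuclei with a UMI followed the levels but depend on depth, so each nucleus was also thinned to 1000 UMIs. CRH was seen in 9.52% of 777 VIP-like nuclei (exact 95% interval 7.55 to 11.8%) and in 0.0896% of oligodendrocytes, or in 2.06% and 0.0227% after thinning. CRHBP was seen in 55.7% of 522 PVALB-like nuclei (51.4 to 60.1%) and 1.05% of oligodendrocytes, or 11.3% and 0.476% after thinning. CRHR1 was seen in 44.4% of 5030 claustrum-like nuclei (43.1 to 45.8%) and 0.889% of oligodendrocytes, or 3.94% and 0.415% after thinning. In each pair the named neurons were above the oligodendrocytes, also at matched depth. Each pair uses a subclass where the gene stood high, so its direction is no separate result. Oligodendrocytes are a reference here and not a class free of counts. Whether these counts are their own transcripts was not tested. After thinning, CRHBP was seen in 0.104% of excitatory nuclei, a smaller share than in oligodendrocytes. The median depths were 6263 UMIs in VIP-like, 10244 in PVALB-like, 16362 in claustrum-like nuclei and 2372 in oligodendrocytes. Intervals and floors cover counting error only.

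Most positive nuclei held a single molecule of CRH, with 92 of 100 inhibitory nuclei at 1 UMI and a maximum of 4 UMIs. CRHBP was more uneven: of 516 inhibitory nuclei with a UMI, 259 had 1 UMI and 257 had more, up to 34 UMIs. Of 3471 excitatory nuclei with CRHR1, 2198 had 1 UMI and 1273 had more, up to 8 UMIs.

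Inhibitory neurons were split into VIP-like (777 nuclei), LAMP5 or SNCG-like (344), SST-like (353) and PVALB-like (522) subclasses, and 540 stayed unnamed. VIP and LAMP5 or SNCG neurons arise in the caudal ganglionic eminence, and SST and PVALB neurons in the medial ganglionic eminence. The name PVALB-like rests on the other markers of the type, because PVALB itself was seen in few nuclei, 24 of the 516 inhibitory nuclei with CRHBP and 20 of the 2020 without it. CRH was largely a VIP-like transcript and CRHBP an SST-like and PVALB-like transcript.

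**Figure D2:**
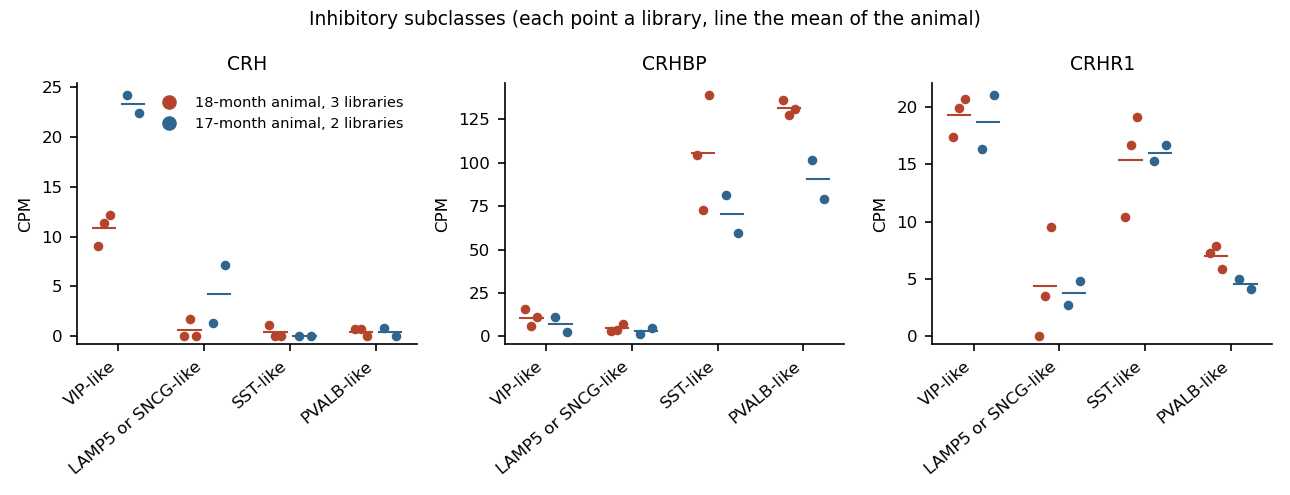
Level of CRH, CRHBP and CRHR1 (CPM, vertical axes) in 4 inhibitory subclasses. Each point is a library, the 18-month animal left of the 17-month animal, and lines are the means of an animal. CRH stands high in VIP-like nuclei, between 9.09 and 24.2 CPM, and CRHBP in SST-like and PVALB-like nuclei, between 59.6 and 139 CPM.

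CRH was at 9.09, 11.4 and 12.2 CPM in VIP-like nuclei of the 18-month animal and at 24.2 and 22.4 CPM in those of the 17-month animal. These sums held 84 UMIs, against 5 in LAMP5 or SNCG-like, 1 in SST-like and 3 in PVALB-like nuclei. CRH did not pass the filter on low counts in the fit of the subclasses, so only counts are given: per UMI sequenced, VIP-like nuclei had 22.0 times as much CRH as the other 3 subclasses together (95% counting interval 11 to 49.7). Every library was higher in VIP-like nuclei than in any other named subclass.

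Within the VIP-like nuclei, CRH was at 22.7 CPM in cluster 1 of 379 nuclei, 13.5 CPM in cluster 6 of 173 nuclei and 6.64 CPM in cluster 5 of 225 nuclei. A pair of unnamed inhibitory clusters reached like levels, at 11.2 CPM on 13 UMIs in cluster 7 (103 nuclei) and 12.5 CPM on 6 UMIs in cluster 11 (46 nuclei). The inhibitory nuclei with CRH carried the marks of the caudal eminence: ADARB2 was seen in 97 of 100 with CRH, against 1561 of 2436 without it. CALB2, the calcium-binding protein calretinin, was seen in 62 of 100 and VIP in 48 of 100, against 621 and 357 of 2436. LHX6, a transcription factor of the medial eminence, was seen in 3 of 100 with CRH and 812 of 2436 without it, at median depths of 7811 and 8193 UMIs.

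CRHBP was at 136, 127 and 131 CPM in PVALB-like nuclei of the 18-month animal and at 102 and 79.2 CPM in those of the 17-month animal. In SST-like nuclei it was at 104, 72.9 and 139 CPM in the 18-month animal and at 81.5 and 59.6 CPM in the 17-month animal. These subclasses overlap each other. VIP-like nuclei lay between 2.63 and 15.7 CPM and LAMP5 or SNCG-like nuclei between 1.36 and 7.16 CPM, below every SST-like and PVALB-like library.

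Each subclass was then compared with the mean of the other 3, in 7027 genes. CRHBP was higher in PVALB-like nuclei by 2.95 on the log2 scale (SE 0.137, adjusted p = 1.21e-23) and in SST-like nuclei by 2.50 (SE 0.158, adjusted p = 1.48e-18). It was lower in VIP-like nuclei, at -1.78 (SE 0.286, adjusted p = 1.78e-06), and in LAMP5 or SNCG-like nuclei, at -3.66 (SE 0.307, adjusted p = 2.76e-14). All 4 differences were called, each in 5 of 5 libraries, where 6.63% of genes were called for PVALB-like, 5.98% for SST-like, 5.42% for VIP-like and 7.43% for LAMP5 or SNCG-like nuclei. The level in LAMP5 or SNCG-like nuclei, 3.95 ± 2.18 CPM, was no higher than that in oligodendrocytes.

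CRHBP was not uniform inside these subclasses. It reached 130 CPM in PVALB-like cluster 0 and 56.6 CPM in PVALB-like cluster 8, and 105 CPM in SST-like cluster 4 and 43.0 CPM in SST-like cluster 9. Unnamed cluster 12, of 32 nuclei, was at 110 CPM on 35 UMIs. Among inhibitory nuclei, LHX6 was seen in 322 of 516 with CRHBP against 493 of 2020 without it, and SST in 176 of 516 against 292 of 2020. Nuclei with CRHBP were deeper, at a median of 10852.5 UMIs against 7644 UMIs, and the part of depth in these shares was not tested. ADARB2 went the other way, in 136 of 516 with CRHBP and 1522 of 2020 without it.

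CRH and CRHBP were seen together in few nuclei. Of 100 inhibitory nuclei with CRH, 10 also had CRHBP, against 506 of 2436 without CRH. Within VIP-like nuclei the counts were 7 of 74 with CRH and 37 of 703 without it, at median depths of 7329 and 6174 UMIs. CRHR1 was seen in 7 of 100 inhibitory nuclei with CRH and in 198 of 2436 without it.

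CRHR1 differed among inhibitory subclasses too. It was at 17.4, 19.9 and 20.7 CPM in VIP-like nuclei of the 18-month animal and at 16.4 and 21.1 CPM in those of the 17-month animal, and between 10.4 and 19.2 CPM in SST-like nuclei. PVALB-like nuclei lay between 4.10 and 7.91 CPM and LAMP5 or SNCG-like nuclei between 0 and 9.54 CPM. VIP-like and SST-like libraries overlapped each other but not the other 2 subclasses. CRHR1 was higher in VIP-like nuclei, at log2 1.39 (SE 0.234, adjusted p = 4.37e-06), and in SST-like nuclei, at 1.03 (SE 0.269, adjusted p = 0.00292), and lower in LAMP5 or SNCG-like nuclei, at -1.71 (SE 0.391, adjusted p = 0.000522). In PVALB-like nuclei the value was -0.71 (SE 0.297, adjusted p = 0.0628), which was not called. Without the first 17-month library the SST-like value was 0.94 and missed the fold limit.

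CRHR2 had 12 UMIs in PVALB-like, 4 in VIP-like, 2 in SST-like and 0 in LAMP5 or SNCG-like nuclei and was not tested among them.

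The named excitatory nuclei differed by receptor. Claustrum-like nuclei carried CRHR1 and almost no CRHR2, while nuclei like the corticothalamic (CT) neurons of cortical layer 6, named from SYT6, FOXP2, TLE4, SEMA3E and HS3ST4, carried CRHR2 and little CRHR1. The other named excitatory nuclei were layer 6 intratelencephalic (IT)-like (119) and layer 4/5 IT-like (95), next to 697 layer 6 CT-like nuclei, and 2701 stayed unnamed under limits set after the clusters had been seen. The layer 4/5 IT-like cluster scored higher for the markers of another subclass than for its own. The unnamed ones numbered 525, 584 and 388 in the 18-month animal and 731 and 473 in the 17-month animal.

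**Figure D3:**
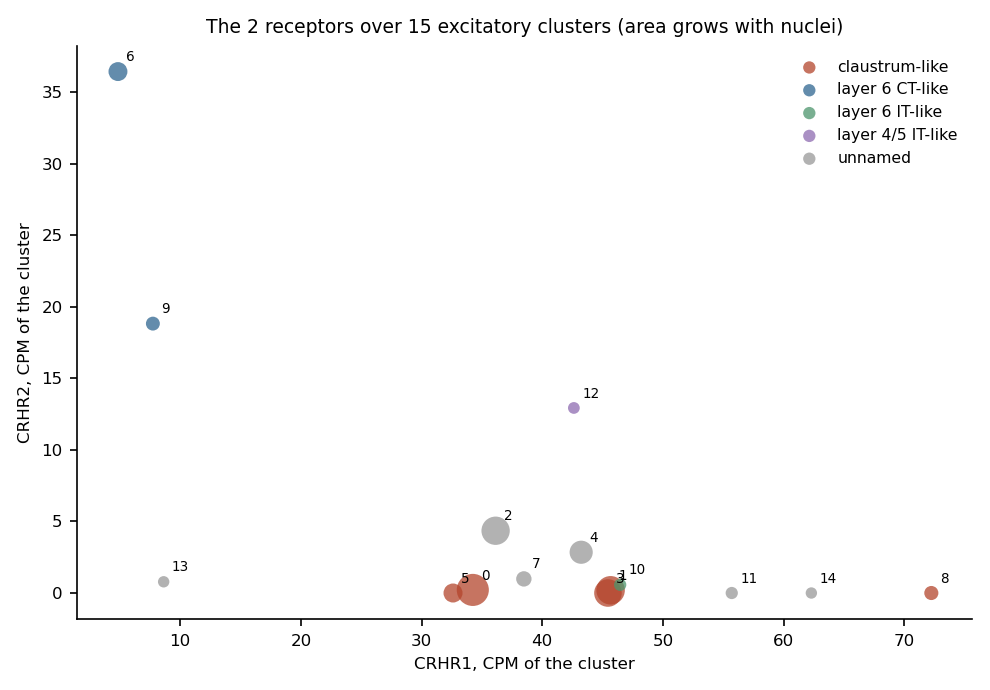
CRHR1 (CPM, horizontal axis) and CRHR2 (CPM, vertical axis) in 15 excitatory clusters, each a point numbered by cluster, coloured by name and sized by its nuclei. The 2 layer 6 CT-like clusters stand at 4.84 and 7.74 CPM of CRHR1 and 36.5 and 18.8 CPM of CRHR2. The 5 claustrum-like clusters stand between 32.6 and 72.2 CPM of CRHR1 and at or under 0.216 CPM of CRHR2. Layer 4/5 IT-like cluster 12 carries both, and so do unnamed clusters 2 and 4, with less CRHR2.

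CRHR1 was at 38.1, 43.3 and 47.4 CPM in claustrum-like nuclei of the 18-month animal and at 37.7 and 37.0 CPM in those of the 17-month animal. The other named excitatory nuclei together were at 7.21, 19.6 and 7.26 CPM in the 18-month animal and at 17.8 and 16.3 CPM in the 17-month animal. The 2 sets did not overlap, and CRHR1 was higher in claustrum-like nuclei by 1.55 on the log2 scale (SE 0.243, adjusted p = 0.00284), in a comparison that called 10% of 10324 genes. Against all other excitatory nuclei, unnamed clusters included, the value was 0.31 (SE 0.101, adjusted p = 0.0410) and no longer reached the fold limit.

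The layer 6 CT-like nuclei were the lowest of the named excitatory nuclei in CRHR1, at 4.44, 6.72 and 5.07 CPM in the 18-month animal and at 8.41 and 4.13 CPM in the 17-month animal. Layer 6 IT-like nuclei were at 48.4, 44.1 and 46.0 CPM in the 3 libraries with enough nuclei, 1 of the 18-month animal and 2 of the 17-month animal, and layer 4/5 IT-like nuclei at 39.5 and 42.6 CPM in 1 library of each animal. These overlap the claustrum-like range, and only the CT-like values lie below it.

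Against the mean of the other 3 subclasses, in 9086 genes, CRHR1 was lower in layer 6 CT-like nuclei, at -2.89 (SE 0.186, adjusted p = 1.12e-12), where 6.87% of genes were called. It was higher in layer 6 IT-like nuclei, at 1.19 (SE 0.201, adjusted p = 0.000194), where 2.77% were called. The mean of the others holds the low CT-like nuclei there. Layer 6 IT-like nuclei averaged 46.2 CPM, beside 41.1 CPM in layer 4/5 IT-like and 40.7 CPM in claustrum-like nuclei. The claustrum-like value, 0.94 (SE 0.122, adjusted p = 6.35e-07), fell short of the fold limit (8.17% of genes were called), and layer 4/5 IT-like nuclei were at 0.76 (SE 0.249, adjusted p = 0.0689), where 2.98% were called. Without the second 17-month library the claustrum-like value was 1.00 and was called; with the finer resolution of 1 it was 0.94.

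Among the claustrum-like clusters, CRHR1 was at 72.2 CPM in cluster 8 (207 nuclei), 45.7 CPM in cluster 1, 45.5 CPM in cluster 3, 34.2 CPM in cluster 0 and 32.6 CPM in cluster 5. Cluster 8 held 16, 37 and 11 nuclei of the 18-month animal and 112 and 31 of the 17-month animal, at a median depth of 5759 UMIs against 15580 UMIs in all excitatory nuclei. Unnamed clusters 14, 11, 4, 7 and 2 stood at 62.3, 55.7, 43.2, 38.5 and 36.1 CPM. Unnamed cluster 13, of 80 nuclei, was at 8.63 CPM on 11 UMIs.

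CRHR2 was at 50.5, 31.6 and 30.9 CPM in layer 6 CT-like nuclei of the 18-month animal and at 22.9 and 18.6 CPM in those of the 17-month animal, 312 UMIs in all. In claustrum-like nuclei it was between 0.0562 and 0.192 CPM, on 11 UMIs from 5030 nuclei. Even the lowest CT-like library lay far above the highest claustrum-like library. Per UMI sequenced, layer 6 CT-like nuclei had 251 times as much CRHR2 as claustrum-like nuclei (95% counting interval 138 to 508).

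In the fit of claustrum-like against the other named excitatory nuclei, CRHR2 had a log2 fold change of -7.64 (SE 0.280, adjusted p = 4.50e-11), lower in 5 of 5 libraries. Layer 4/5 IT-like nuclei were at 10.2 CPM in a library of the 18-month animal and 15.5 CPM in a library of the 17-month animal, on 8 and 4 UMIs. In the same libraries layer 6 CT-like nuclei were at 31.6 CPM in the 18-month animal and 18.6 CPM in the 17-month animal, higher in both but only slightly in the second. Layer 6 IT-like nuclei had 1 UMI of CRHR2 in 119 nuclei and none in the sums that were fitted, so no fold against them is given and CRHR2 is given here without a fit of the subclasses.

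Between the 2 CT-like clusters, CRHR2 was at 36.5 CPM in cluster 6 (500 nuclei) and 18.8 CPM in cluster 9 (197 nuclei). It was also present in unnamed cluster 2, led by MLXIPL, ERG and SCUBE1, at 4.35 CPM on 110 UMIs, and in unnamed cluster 4 at 2.85 CPM on 36 UMIs. These clusters, of 1320 and 829 nuclei, also carried CRHR1, at 36.1 and 43.2 CPM. Claustrum-like clusters 3, 5 and 8 had 0 UMIs of CRHR2. CRHR2 was seen in 208 of 697 layer 6 CT-like nuclei (29.8%, exact 95% interval 26.5 to 33.4%), or 2.73% after thinning against 0.0529% of oligodendrocytes.

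The receptors were seen together in a minority of the nuclei with CRHR2. Of 340 excitatory nuclei with CRHR2, 79 also had CRHR1, against 3392 of 8302 without CRHR2, at median depths of 16792.5 and 15500.5 UMIs. FOXP2, a layer 6 transcription factor, was seen in 220 of 340 with CRHR2 and 1326 of 8302 without it. Within layer 6 CT-like nuclei CRHR1 was seen in 22 of 208 with CRHR2 and 27 of 489 without it, at medians of 15815.5 and 12241 UMIs. Of 2235 claustrum-like nuclei with CRHR1, 5 had CRHR2, against 6 of 2795 without CRHR1. These are like shares, 0.224% and 0.215%, at median depths of 18896 and 14508 UMIs.

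**Figure D4:**
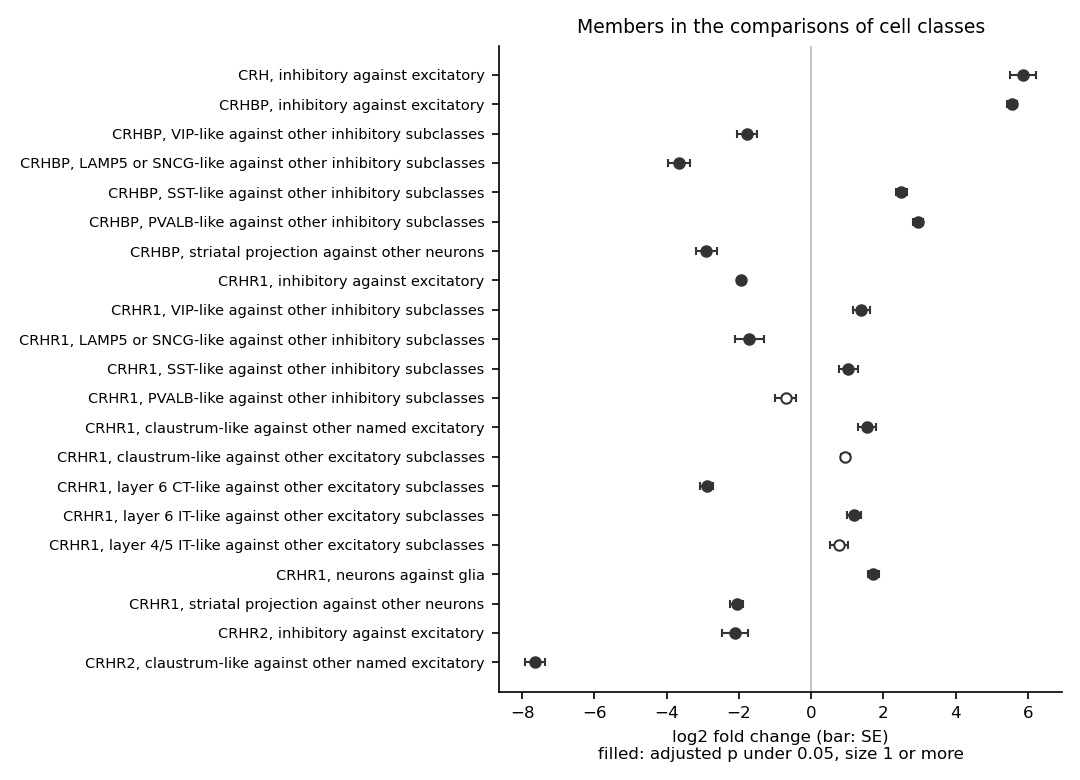
Log2 fold changes (horizontal axis, bars are SE) of the 4 genes in the comparisons of cell classes by edgeR, one row each. Filled points passed an adjusted p under 0.05 and a size of 1 or more. CRH and CRHBP lie right of 0 and CRHR1 and CRHR2 left of it in inhibitory against excitatory neurons, and the lowest point is CRHR2 in claustrum-like nuclei at -7.64.

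The animals were compared within classes, 3 libraries against 2, with calls at an adjusted p under 0.05 and no limit on the fold. In inhibitory neurons CRH was lower in the 18-month animal, with a log2 fold change of -1.42 (SE 0.301, adjusted p = 0.00114 by edgeR), and CRHBP was higher, at 0.68 (SE 0.117, adjusted p = 9.37e-05). In this comparison 8.08% of 9836 genes were called. The libraries of the animals did not overlap for either gene. CRH was at 3.21, 2.84 and 2.84 CPM in the 18-month animal and 9.02 and 6.80 CPM in the 17-month animal. CRHBP was at 53.1 CPM or more in the 18-month animal and 40.9 CPM or less in the 17-month animal. How many of all genes lacked overlap was not counted, so here and below lack of overlap between the animals is a description only. The call of CRH was lost with DESeq2 (adjusted p = 0.0600) and without the first 17-month library (adjusted p = 0.134).

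VIP-like nuclei made up 29.7, 27.7 and 29.1% of inhibitory nuclei in the 18-month animal and 34.3 and 30.7% in the 17-month animal, without overlap. PVALB-like nuclei made up 19.2, 23.9 and 25.5% in the 18-month animal and 18.1 and 18.8% in the 17-month animal, also without overlap. Their part in the differences between the animals was not tested; the genes were also compared inside the subclasses. In VIP-like nuclei CRH had a log2 fold change of -1.12 (SE 0.340, adjusted p = 0.0714), which was not called (1.47% of 7290 genes were), with no overlap of the libraries. In PVALB-like nuclei CRHBP was higher in the 18-month animal by 0.53 (SE 0.136, adjusted p = 0.0271), where 2.16% of 7540 genes were called. In SST-like nuclei it was at 0.51 (SE 0.231, adjusted p = 0.429; 0.546% of genes called), and the animals overlapped. The PVALB-like call was lost with DESeq2 (adjusted p = 0.488) and without the second 17-month library (adjusted p = 0.230) or any one library of the 18-month animal (adjusted p = 0.131, 0.0556 and 0.0610 for the first, second and last).

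**Figure D5:**
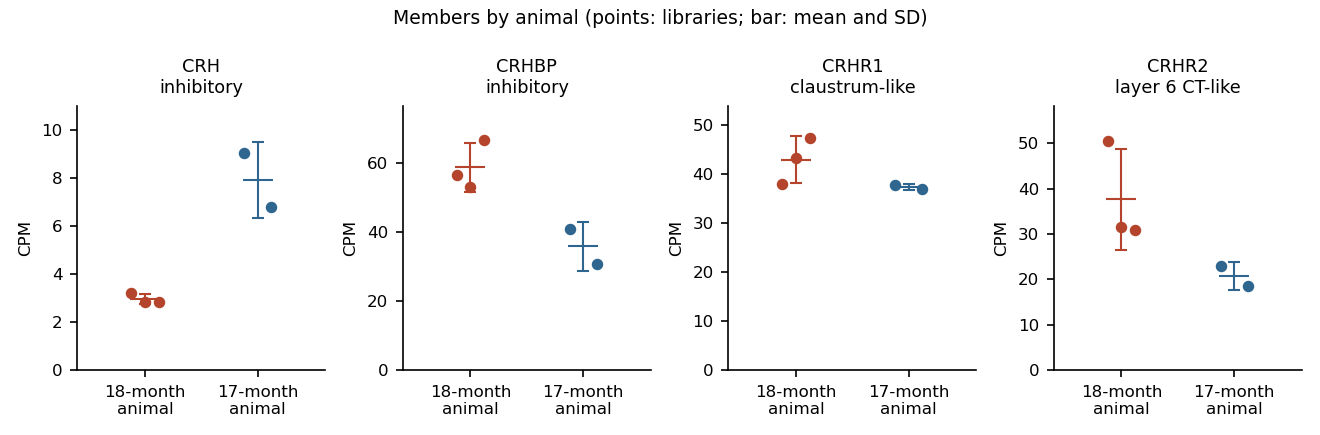
Level (CPM, vertical axes from 0) of CRH and CRHBP in inhibitory neurons, CRHR1 in claustrum-like nuclei and CRHR2 in layer 6 CT-like nuclei, the 18-month animal left of the 17-month animal. Points are libraries and bars are mean and SD. The animals do not overlap in any panel, and CRHR1, from 37.0 to 47.4 CPM, is the closest. In all excitatory neurons and in inhibitory neurons, not drawn here, CRHR1 overlapped between the animals. The share of all genes without overlap was not counted.

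CRHR2 was higher in the 18-month animal in excitatory neurons, by 0.77 (SE 0.223, adjusted p = 0.0448), where 16.2% of 12102 genes were called, and in layer 6 CT-like nuclei, by 0.90 (SE 0.233, adjusted p = 0.0265), where 3.55% of 8318 were called. In layer 6 CT-like nuclei the lowest 18-month library, at 30.9 CPM, lay above the highest 17-month library, at 22.9 CPM. The share of layer 6 CT-like nuclei among excitatory nuclei overlapped between the animals, at 6.55, 10.0 and 8.07% in the 18-month animal and 6.43 and 9.65% in the 17-month animal. The excitatory call was lost without the first or second 18-month library (adjusted p = 0.121 and 0.0651) or the first or second 17-month library (adjusted p = 0.141 and 0.280). The CT-like call was lost with DESeq2 (adjusted p = 0.230) and without the first 18-month library (adjusted p = 0.134) or the first or second 17-month library (adjusted p = 0.0853 and 0.238).

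CRHR1 was not called between the animals in any class tested. In claustrum-like nuclei it was at 0.27 on the log2 scale (SE 0.103, adjusted p = 0.12; 13.1% of genes called), in all excitatory neurons at 0.10 (SE 0.0841, adjusted p = 0.470) and in inhibitory neurons at 0.04 (SE 0.211, adjusted p = 0.948). Without the first 18-month library the claustrum-like value was 0.36 and was called (adjusted p = 0.0301). Whether the contrast of inhibitory and excitatory neurons itself differed between the animals was tested for all 4 genes, and none passed, CRHR2 coming nearest at -2.30 (SE 0.672, adjusted p = 0.123) and CRHBP at 0.53 (adjusted p = 0.580).

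The wider pathway was followed through 37 listed genes, all found in the tables. Of the other ligands, urocortin (UCN) averaged 8.8 CPM in inhibitory and 5.66 CPM in excitatory neurons, UCN3 had 11 UMIs in excitatory neurons and 2 in inhibitory neurons, and UCN2 had 0 UMIs in every class. UCN, named here after its values were seen, was lower in the 18-month animal in inhibitory neurons (6.68 against 11.99 CPM, log2 -0.86, adjusted p = 0.0100 by edgeR) and in excitatory neurons (4.05 against 8.07 CPM, log2 -0.95, adjusted p = 0.00699), with no overlap of the libraries in either class. It was also called lower in the 18-month animal in claustrum-like nuclei (log2 -0.78) and in layer 6 CT-like nuclei (log2 -1.57), and not in VIP-like nuclei (log2 -0.74, adjusted p = 0.575). POMC, the hormone precursor that CRH induces in the pituitary, averaged 77.5 CPM in striatal projection neurons and 64.6 CPM in astrocytes, against 10.8 CPM in excitatory neurons.

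Between inhibitory and excitatory neurons, 35 of the 37 genes were tested, and 8 were called higher and 4 lower, 34.3% of them where 15.2% of all genes were called; their median log2 fold change was 0.02 and that of all genes -0.04. The called genes of largest change were all higher in inhibitory neurons. They were GNAL, the olfactory-type stimulatory G protein (log2 3.15, 215 against 23.0 CPM), ADCY8, an adenylyl cyclase activated by calcium (2.73, 292 against 41.4 CPM), PAM, which amidates peptides such as CRH (2.61, 475 against 72.1 CPM), and GRK5, a kinase that desensitizes receptors (2.37, 175 against 31.4 CPM). Each was higher in 5 of 5 libraries.

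Among inhibitory subclasses 33 were tested. The share called was 18.2% in VIP-like nuclei (5.42% of all genes), 18.2% in PVALB-like (6.63%), 15.2% in SST-like (5.98%) and 15.2% in LAMP5 or SNCG-like nuclei (7.43%). In VIP-like nuclei 5 were called higher and 1 lower, the higher ones including both corticosteroid receptors: the mineralocorticoid receptor NR3C2 (log2 1.88, 761 against 264 CPM in the mean of the others) and the glucocorticoid receptor NR3C1 (1.13, 278 against 130 CPM). The prohormone convertase PCSK2, which cleaves peptide precursors, was also higher there (1.79, 382 against 134 CPM). PVALB-like nuclei had 4 higher and 2 lower, with PCSK2 lower (-1.97, 52.4 against 244 CPM) and the cyclase ADCY1 higher (1.5, 289 against 103 CPM). SST-like nuclei had 1 higher, PAM (1.14, 721 against 359 CPM), and 4 lower, among them NR3C2 (-2.01, 100 against 484 CPM). LAMP5 or SNCG-like nuclei had 2 higher and 3 lower, with the receptor kinase GRK3 higher (1.34, 573 against 235 CPM).

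In claustrum-like against other named excitatory nuclei 34 were tested, and 2 were called higher and 5 lower, 20.6% of them where 10% of all genes were called, with a median of -0.03 against 0.05 over all genes. ADCY8 was lower (log2 -5.11, 8.21 against 276 CPM) and so was GNAL (-2.48, 15.5 against 90.0 CPM). ADCY2, a cyclase stimulated by G protein beta-gamma subunits, was higher (1.17, 1243 against 563 CPM), as was NR3C2 (1.44, 143 against 55.1 CPM). In layer 6 CT-like nuclei, where CRHR2 was high, 3 were called higher and 3 lower, 17.6% of them against 6.87% of all genes; ADCY8 (3.38, 325 against 29.6 CPM) and GNAL (2.65, 108 against 18.2 CPM) were among the higher and PAM (-1.94, 28.6 against 94.1 CPM) among the lower.

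Of 35 pathway genes tested in neurons against glia and endothelial nuclei, 15 were called higher and 2 lower. These were 48.6% of them, where 25.9% of all genes were called. PCSK2 (log2 2.97, 394 against 58.6 CPM) and ADCY1 (2.70, 187 against 34.4 CPM) were among the higher. In striatal projection against other neurons 8 were called higher and 9 lower, 48.6% against 20.7% of all genes; MME, a peptide-degrading enzyme, was higher (7.67, 378 against 2.37 CPM) and ADCY2 lower (-4.56, 29.0 against 726 CPM). Between the animals, 3 of 35 were called higher and 3 lower in inhibitory neurons of the 18-month animal (17.1% against 8.08% of all genes), with the convertase PCSK1 higher (0.81, 20.4 against 11.8 CPM) and PCSK2 lower (-0.55, 166 against 246 CPM). In excitatory neurons 5 were called higher and 5 lower (28.6% against 16.2% of all genes), GNAL among the lower (-0.58, 18.9 against 29.2 CPM).

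Over 14 classes of mean levels, the genes whose pattern was most like that of CRH by Pearson correlation of log2(CPM + 1), among 13934 genes, were SHISA8 (r = 0.96), CCL13 (0.94), SCGN, which encodes the calcium-binding protein secretagogin (0.93), ENSMMUG00000058490 (0.92) and CHRNA2, a nicotinic acetylcholine receptor subunit (0.92), all highest in VIP-like nuclei. For CRHBP they were TMEM221 (0.94), ENSMMUG00000064172 (0.92), PROC (0.92), EYS (0.90) and PRKRA (0.89). For CRHR1 they were CNTN3 (0.90), GLRA3, a glycine receptor subunit (0.90), LTBP4 (0.87), RCE1 (0.87) and SLC43A1 (0.87). For CRHR2 they were TACR3, the receptor of neurokinin B (0.93), PROKR2, a prokineticin receptor (0.92), IQCF2 (0.85), FMOD (0.82) and ENSMMUG00000058216 (0.81). The classes share the same 5 libraries and differ in depth, so these values describe the pattern only.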

How the data were processed

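RNA of single nuclei was counted by the authors and deposited as raw UMI counts per gene and barcode; the file headers name Cell Ranger 5.0.1. The submitters' processing notes also name CASAVA 1.8, Seurat and the builds Mmul_10 and mm10; the barcode filter is not given in the sources used here. No coordinates or sequences are printed.

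Nuclei with fewer than 500 genes (359) were removed, the limit of 5% mitochondrial UMIs removed none, and 2555 likely doublets were removed by a simulated-doublet score at 0.8% per 1000 nuclei. Genes were split at random into 2 sets; 2000 variable genes of one set, without members or pathway genes, gave 30 principal components, corrected for library, and Leiden clusters (igraph 0.11.9; resolution 1, subclusters 0.6). Clusters were named where at least 3 markers were on (10 CPM and 25% of the highest cluster), under limits set after the clusters had been seen.

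Sums of counts over the nuclei of a class in a library (20 nuclei or more) went into edgeR 4.0.16 (robust quasi-likelihood fit, TMM, filterByExpr, Benjamini-Hochberg adjustment over all genes tested), in genes not used for clustering or naming, with library as a block between classes. The scripts were tested on simulated data. DESeq2 1.42.0 and the other alternatives are given at the end. A class with 3 UMIs or fewer gets no fold. The members and gene lists were chosen with earlier results of these data known. Pathway genes named are the called ones of largest change, at most 4 per comparison, at 20 CPM or more and in one direction in each library; not all are printed.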

Additional observations from a re-analysis of the deposited data

Results flagged for a closer look

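Unnamed broad clusters, which enter no comparison above, held some of the genes above the mean over libraries of every named broad class, though not above every named subclass or cluster. Single samples were not screened for outlying values, since an animal has 3 libraries or fewer. In cluster 25 (127 nuclei), led by PLEKHD1, RYR1 and ADAMTS5, CRHR1 was at 57.2 CPM on 62 UMIs, against a mean of 37.9 CPM and a highest library of 42.0 CPM in excitatory neurons; claustrum-like cluster 8 was higher, at 72.2 CPM. CRH was at 10.1 CPM on 11 UMIs there, 9 of them in the 17-month animal, against a mean of 4.94 CPM and a highest library of 9.02 CPM in inhibitory neurons and a mean of 15.8 CPM in VIP-like nuclei. In cluster 29 (41 nuclei), led by NOS1, NPY, NDST4 and CHODL, CRHBP was at 92.1 CPM on 45 UMIs, against a mean of 49.6 CPM and a highest library of 66.7 CPM in inhibitory neurons, and means of 115 CPM in PVALB-like and 91.5 CPM in SST-like nuclei. CRHR2 was at 34.8 CPM on 17 UMIs there, 11 in the second and 6 in the last library of the 18-month animal, against a mean of 3.28 CPM and a highest library of 4.42 CPM in excitatory neurons and 36.5 CPM in layer 6 CT-like cluster 6. Cluster 29 has fewer than the 50 nuclei needed for a name. By markers, both clusters came nearest to inhibitory neurons, with 2 of 4 on in cluster 25 and 1 of 4 in cluster 29. Named inhibitory neurons averaged 10.8 CPM of CRHR1 on 243 UMIs and 0.863 CPM of CRHR2 on 19 UMIs. The values given above for inhibitory neurons leave both clusters out.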

How the results depend on the processing

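The 5 libraries come from 2 animals, and CRH (162 UMIs) and CRHR2 (559 UMIs) rest on few counts, so small differences in them were not detectable. Between cell classes, the calls of the 4 genes were the same with DESeq2, DESeq2 size factors, no filter, 1000 genes per nucleus, doublets kept, no replicate block and subclusters at resolution 1. CRHR1 in claustrum-like nuclei is the exception against all other excitatory nuclei, at 0.31 (adjusted p = 0.0410). Over 31 results and 355 alternative values, 333 stayed on their side of the threshold, 17 lost the call, 2 gained it and 3 changed sign.

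Leaving out each library in turn gave log2 ranges of 0.94 to 1.10 for CRHR1 in SST-like nuclei, 0.86 to 1.00 for CRHR1 in claustrum-like against other excitatory subclasses, and 5.66 to 6.71 for CRH in inhibitory against excitatory neurons. Between the animals the ranges were -1.58 to -1.16 for CRH and 0.52 to 0.93 for CRHBP in inhibitory neurons, 0.40 to 0.75 for CRHBP in PVALB-like nuclei, 0.61 to 0.97 for CRHR2 in excitatory neurons, 0.68 to 1.02 for CRHR2 in layer 6 CT-like nuclei and 0.19 to 0.36 for CRHR1 in claustrum-like nuclei. CRHR1 in inhibitory neurons (0.04) ran from -0.0739 to 0.14 and changed sign without the first 17-month or the last 18-month library (-0.0671). With DESeq2 the values between animals were -1.42 for CRH in inhibitory neurons (adjusted p = 0.0600), 0.90 for CRHR2 in layer 6 CT-like nuclei (0.230) and 0.54 for CRHBP in PVALB-like nuclei (0.488). The cause of these losses was not tested.

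The replicate numbers are shared by 2 pairs of libraries, whose deviations correlated between -0.220 and 0.055. Pairs of unlike number ran from -0.27 to 0.27. The deviations of the 2 libraries of the 17-month animal mirror each other. These values therefore cannot tell whether libraries of the same number share more than the number. With the replicate block CRHR1 in inhibitory neurons changed sign, at -0.0804, and no call of the 4 genes changed. Genes called between the animals were then 648 in place of 1492 in claustrum-like nuclei and 462 in place of 295 in layer 6 CT-like nuclei.

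With no filter the genes called were 621 for VIP-like (381) and 773 for PVALB-like nuclei (466), and between the animals 496 in layer 6 CT-like (295), 78 in SST-like (36) and 249 in PVALB-like nuclei (163). With DESeq2 they were, between the animals, 216 in inhibitory neurons (795), 93 in layer 6 CT-like (295), 6 in VIP-like (107), 5 in SST-like (36) and 21 in PVALB-like nuclei (163). Leaving out a library gave 390 to 2557 genes in excitatory neurons (1963), 319 to 769 in inhibitory neurons, 300 to 1891 in claustrum-like, 118 to 260 in layer 6 CT-like, 40 to 67 in VIP-like, 8 to 50 in SST-like and 84 to 124 in PVALB-like nuclei, and between classes 147 to 262 for layer 6 IT-like (252) and 121 to 285 for layer 4/5 IT-like nuclei (271).

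Thinning to 1000 UMIs gave shares of 2.06% for CRH in VIP-like, 11.3% and 8.78% for CRHBP in PVALB-like and SST-like, 3.94% for CRHR1 in claustrum-like and 2.73% for CRHR2 in layer 6 CT-like nuclei. With Spearman's correlation 0 of the 5 genes most like CRH were shared, 1 for CRHBP (PRKRA), 0 for CRHR1 and 0 for CRHR2.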
